A study of Mus musculus with 24 samples.

Results

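Glutathione is made from cystine that a cell imports, and 7 mouse liver genes of that route are described here: the cystine/glutamate exchanger Slc7a11, the glutamate and cysteine carrier Slc1a1, the 2 subunits of glutamate-cysteine ligase Gclc and Gclm, glutathione synthetase Gss, glutathione reductase Gsr and the gamma-glutamyltransferase Ggt1. They were picked out of the 33019 genes of the count table by symbol. The rule uses no measured value, but the route was chosen with earlier results of these data known. All 7 passed the filter on low counts. Slc7a11, Slc1a1 and Ggt1 had only 9, 2 and 5 counts over the 4 WT libraries, so these 3 genes passed the filter through the genotypes in which they were high.

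Glutathione is a small peptide of glutamate, cysteine and glycine that keeps thiols reduced, feeds glutathione peroxidases and is joined to electrophiles by glutathione transferases. Cysteine is usually the scarce part: it comes from imported cystine, from methionine by transsulfuration, or from extracellular glutathione that gamma-glutamyltransferase starts to take apart. Glutamate-cysteine ligase catalyses the first and rate-limiting step, glutathione synthetase the second, and glutathione reductase returns the oxidised form to the reduced one. The transcription factor NRF2, encoded by Nfe2l2, binds antioxidant response elements in several of these genes, KEAP1 keeps it low, and the autophagy receptor p62 can hold KEAP1 away from it. ATF4, a factor of the amino acid response, is a known activator of Slc7a11. Hepatocytes supply most of the circulating glutathione, and in adult liver Ggt1 is known mainly from bile duct cells.

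Polyadenylated RNA was sequenced from livers of 2-month-old C57BL/6J mice, with 4 libraries from each of 6 genotypes. The genotypes, all labelled as hepatic deletions, were Atg5/TSC1/p62 TKO (called p62 TKO here), Atg5/TSC1/Nrf2 TKO (Nrf2 TKO), Atg5/TSC1 DKO (DKO), Atg5 KO and TSC1 KO, and the sixth was wild type (WT). Atg5 is needed to build autophagosomes, and TSC1 restrains the growth kinase complex mTORC1. Both triple knockouts and the DKO therefore share the deletions of Atg5 and TSC1, and each triple knockout is set against the DKO for the deletion of p62 or Nrf2. The labels name no Cre driver, sex or batch, and do not say whether the 4 libraries of a genotype came from separate animals. The p-values measure only the spread between these libraries, which may be technical.

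The sequences upstream of 3 members are shown: those of both carriers, which along with Ggt1 had the largest changes in DKO against WT, and that of Gclm, the only member called lower there (with TMM scaling). Each is the 250 bases before the RefSeq start on GRCm38.p6, on the strand of the gene, at chr3:50443614-50443863 (minus strand) for Slc7a11, chr19:28834885-28835134 (plus strand) for Slc1a1 and chr3:122245307-122245556 (plus strand) for Gclm. Capitals mark matches to either of 2 motifs.
Slc7a11: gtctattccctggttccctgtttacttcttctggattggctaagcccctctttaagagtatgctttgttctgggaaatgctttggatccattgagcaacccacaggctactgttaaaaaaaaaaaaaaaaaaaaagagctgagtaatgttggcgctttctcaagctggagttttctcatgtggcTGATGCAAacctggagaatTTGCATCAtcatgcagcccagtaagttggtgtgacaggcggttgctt
Slc1a1: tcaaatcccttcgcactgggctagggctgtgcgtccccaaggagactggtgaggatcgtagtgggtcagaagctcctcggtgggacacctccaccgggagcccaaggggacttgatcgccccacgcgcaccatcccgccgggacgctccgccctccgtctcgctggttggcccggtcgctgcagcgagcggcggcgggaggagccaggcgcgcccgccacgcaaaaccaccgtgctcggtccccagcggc
Gclm: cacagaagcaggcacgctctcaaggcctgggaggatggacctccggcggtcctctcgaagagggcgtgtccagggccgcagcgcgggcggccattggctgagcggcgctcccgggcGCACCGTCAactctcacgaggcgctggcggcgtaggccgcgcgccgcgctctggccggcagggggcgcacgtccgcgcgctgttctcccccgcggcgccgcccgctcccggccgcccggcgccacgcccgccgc
The motifs searched on both strands were TGACNNNGC, the core of the antioxidant response element, and TGATGNAA, the composite element of ATF4 and C/EBP proteins. In windows of 250 bases before to 50 bases after a start, 12.4% of 32851 promoters held the first motif and 3.97% held the second. Slc7a11 held a pair of matches to the composite element in opposite orientations, which began 66 and 47 bases before the start, and none to the antioxidant core in this window. Gclm held 1 match to the antioxidant core, 134 bases before the start. Slc1a1 and Gss held neither, and Ggt1 held the antioxidant core at 3 of the 4 starts listed for it. The motif matches did not overlap each other. Sequences were matched for 5 of the 7 members, and those of Gclc and Gsr were not analysed here.

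Library totals lay between 10494080 and 13057467 counts. Of the deleted genes, Nfe2l2 was low in the Nrf2 TKO, at 8.69 to 17.7 CPM (counts scaled to a common library size, with TMM to align libraries on the bulk of their genes), against 92.8 to 162 CPM in the DKO. Sqstm1, which encodes p62, had 249, 439, 363 and 774 CPM in the p62 TKO, against 1002, 1049, 1063 and 729 CPM in the DKO, so the ranges overlapped through p62 TKO replicate 4 and DKO replicate 4. Against WT, neither single knockout had clearly fewer reads of its own deleted gene. Mean Atg5 was 43.0 CPM in libraries labelled Atg5 KO and 26.8 CPM in WT libraries. Mean Tsc1 was 31.0 CPM in libraries labelled TSC1 KO and 35.1 CPM in WT libraries. Atg5 rose by 1.64 ± 0.13 on the log2 scale in the TSC1 KO relative to WT. Its 79.8 to 88.6 CPM there lay above every library in which Atg5 and TSC1 were both labelled as deleted. Those had 20.1 to 25.1 (DKO), 35.5 to 42.8 (p62 TKO) and 35.2 to 53.0 CPM (Nrf2 TKO). Whether counted reads fell outside the deleted parts was not tested. Genotype names below are those of the labels. Directions drawn from the TSC1 label, and from the Atg5 label against WT, rest on the labels alone. Summed hepatocyte markers (7 of 7 with counts in every genotype) ranged from 13089 to 18271 CPM in the DKO and from 81698 to 103219 CPM in WT, and summed bile duct markers (also 7 of 7) from 6746 to 10099 CPM in the DKO and from 64.8 to 94.6 CPM in WT. In whole liver, more or fewer cells of a type cannot be told apart from more or less RNA per cell.

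In 3 genotypes at least 1 library was the extreme for most of the 7 genes. The p62 TKO replicate 4 was the highest of its genotype for 7 of 7 members, Atg5 KO replicate 2 the lowest for 7 of 7, and DKO replicate 4 the lowest for 6 of 7 and the highest for Ggt1. Atg5 KO replicate 3 and DKO replicate 2 were each the highest of their genotype for 6 of 7. In the Nrf2 TKO, TSC1 KO and WT no library was the highest or the lowest for more than 4 members. For Sqstm1, p62 TKO replicate 4 and Atg5 KO replicate 3 were also the highest of their genotypes, and Atg5 KO replicate 2 and DKO replicate 4 the lowest. DKO replicate 2 was not the highest for Sqstm1 (1049 CPM, against 1063 CPM in DKO replicate 3). The part of p62 transcript level in the members' values was not tested.

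**Figure D1:**
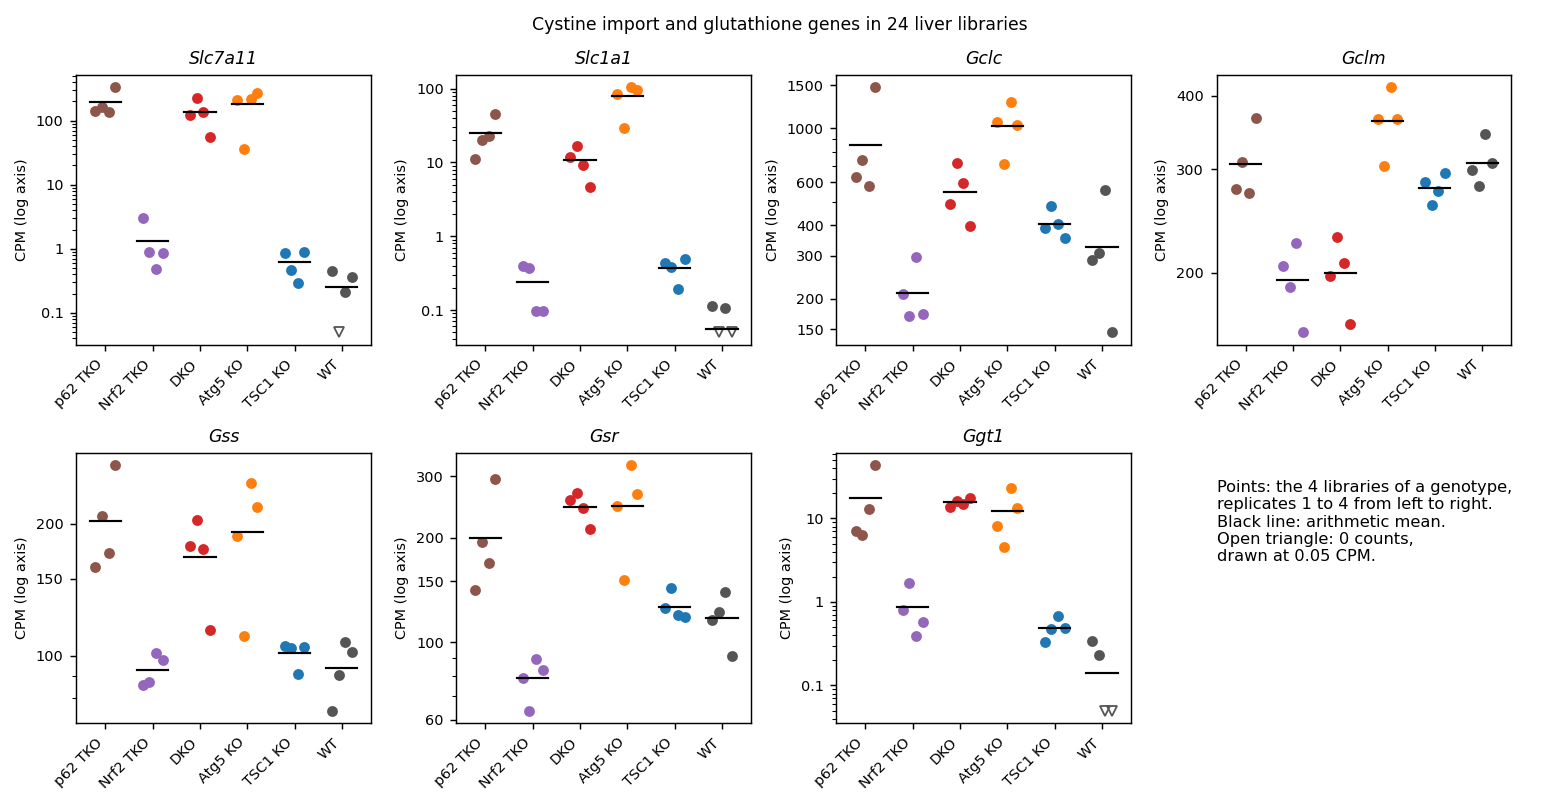
Level of the 7 genes in each of the 24 libraries, in CPM on a logarithmic axis, by genotype. Slc7a11, Slc1a1 and Ggt1 are higher in every p62 TKO, DKO and Atg5 KO library than in any Nrf2 TKO, TSC1 KO or WT library, whereas Gclm stays between 158 and 414 CPM throughout.

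Slc7a11 was close to undetected in WT liver and was a well-expressed gene in 3 of the mutants. Slc7a11 (ENSMUSG00000027737, GRCm38 chromosome 3, 49892526 to 50443614, minus strand) exports glutamate in exchange for cystine and works as a dimer with the heavy chain Slc3a2. It had 139, 161, 136 and 337 CPM in the p62 TKO, 3.07, 0.892, 0.484 and 0.869 CPM in the Nrf2 TKO and 122, 228, 137 and 55.1 CPM in the DKO. Slc7a11 had 209.7, 36.4, 222 and 272 CPM in the Atg5 KO, 0.875, 0.474, 0.290 and 0.887 CPM in the TSC1 KO and 0.454, 0, 0.212 and 0.365 CPM in WT. Every library of the p62 TKO, DKO and Atg5 KO was above every library of the Nrf2 TKO, TSC1 KO and WT. Within each of those sets of 3 genotypes neighbouring genotypes overlapped.

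Slc7a11 rose by 9.44 ± 0.85 on the log2 scale in Atg5 KO relative to WT (fit ± SE; adjusted p = 2.1e-07; from the edgeR quasi-likelihood test, adjusted by Benjamini-Hochberg over the 15851 genes tested, as for each adjusted p below unless another test is named), by 8.99 ± 0.85 in DKO relative to WT (adjusted p = 1.1e-08) and by 9.5 ± 0.85 in p62 TKO relative to WT (adjusted p = 4.2e-08). From the summed counts, Slc7a11 was 739-fold higher in Atg5 KO than in WT (95% interval 389 to 1616), where the interval covers counting error only. In the Nrf2 TKO it fell by 6.69 ± 0.68 relative to the DKO (adjusted p = 9.5e-08), and its remaining level gave 2.3 ± 1.19 relative to WT, which did not pass in edgeR (adjusted p = 0.13) and did in DESeq2 (2.35 ± 0.8, adjusted p = 0.011). The p62 TKO gave 0.51 ± 0.48 relative to the DKO (adjusted p = 0.41; 0.1 ± 0.49 without p62 TKO replicate 4). The ratio of summed counts to WT was 5.03-fold (2.47 to 11.6) in the Nrf2 TKO and 2.43-fold (1.10 to 5.91) in the TSC1 KO, with the spread between libraries left out of both intervals. The TSC1 KO gave 1.25 ± 1.38 relative to WT (adjusted p = 0.58), and the DKO gave -0.45 ± 0.48 relative to the Atg5 KO (adjusted p = 0.45), a value that turned to 0.11 ± 0.5 when libraries were scaled by their total counts alone.

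Slc1a1 followed the same split and was lower in the DKO than in the Atg5 KO. Slc1a1 (ENSMUSG00000024935, chromosome 19, 28835049 to 28913960, plus strand) carries glutamate, aspartate and cysteine into cells, and is better known from neurons, kidney and gut than from liver. It had 11.2, 20.03, 23.02 and 45.6 CPM in the p62 TKO, 0.396, 0.372, 0.0969 and 0.0966 CPM in the Nrf2 TKO and 11.9, 16.9, 9.33 and 4.61 CPM in the DKO. Slc1a1 had 84.0, 29.2, 106 and 96.0 CPM in the Atg5 KO, 0.437, 0.379, 0.193 and 0.493 CPM in the TSC1 KO and 0.113, 0, 0.106 and 0 CPM in WT. The Atg5 KO libraries were all above the DKO libraries, and all TSC1 KO and Nrf2 TKO libraries were below 0.5 CPM.

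The WT total for Slc1a1 was 2 counts, so its changes against WT are given as ratios of summed counts with a 95% counting interval: 434-fold (120.0 to 3592) in the p62 TKO, 4.37-fold (0.953 to 40.6) in the Nrf2 TKO, 183-fold (50.4 to 1510.2) in the DKO, 1408-fold (389.5 to 11630.3) in the Atg5 KO and 6.56-fold (1.52 to 59.1) in the TSC1 KO. The test against WT passed for the p62 TKO (adjusted p = 5.9e-08), the DKO (adjusted p = 1.7e-07) and the Atg5 KO (adjusted p = 2.1e-08), and did not for the Nrf2 TKO (adjusted p = 0.36) or the TSC1 KO (adjusted p = 0.28). Relative to the Atg5 KO, Slc1a1 fell by 2.89 ± 0.41 on the log2 scale in the DKO (adjusted p = 4.8e-06), and the interaction of the Atg5 and TSC1 labels was -5.4 ± 1.51 (adjusted p = 0.008), a fitted value that depends on the 2 WT counts. Relative to the DKO, it fell by 5.37 ± 0.65 in the Nrf2 TKO (adjusted p = 6.4e-07). It rose by 1.23 ± 0.4 in the p62 TKO relative to the DKO (adjusted p = 0.016). That last call was lost without p62 TKO replicate 4 (0.76 ± 0.38, adjusted p = 0.12), without DKO replicate 4 (0.97 ± 0.4, adjusted p = 0.06), with total counts alone (0.77 ± 0.42, adjusted p = 0.11), without a filter on low counts (1.16 ± 0.42, adjusted p = 0.061) and with only the groups compared in the fit (1.25 ± 0.46, adjusted p = 0.05).

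**Figure D2:**
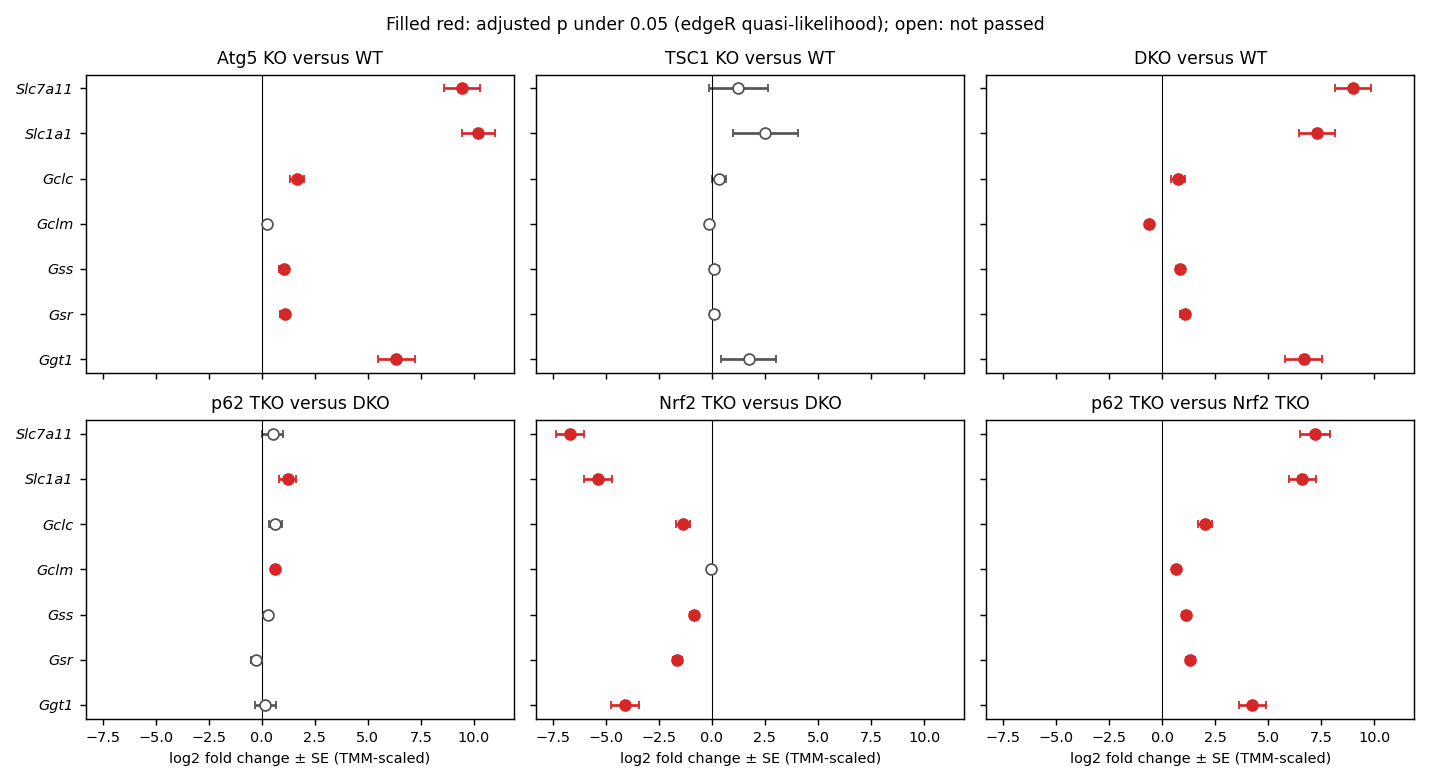
Log2 fold change ± SE of each gene in 6 comparisons (x axis), with TMM scaling. Filled red points passed an adjusted p of 0.05, and in Atg5 KO versus WT, DKO versus WT, Nrf2 TKO versus DKO and p62 TKO versus Nrf2 TKO the 2 carriers and Ggt1 lie farthest from 0.

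Gclc, the catalytic subunit of glutamate-cysteine ligase (ENSMUSG00000032350, chromosome 9, 77754535 to 77794485, plus strand), rose in the Atg5 KO, the p62 TKO and the DKO. It had 634, 740.0, 578 and 1475 CPM in the p62 TKO, 209.8, 169.8, 296 and 173 CPM in the Nrf2 TKO and 489, 716, 595 and 397 CPM in the DKO. Gclc had 1061, 716, 1279 and 1030.0 CPM in the Atg5 KO, 391, 478, 403 and 355 CPM in the TSC1 KO and 287, 307, 559 and 146 CPM in WT. WT was the most spread group of the lower ones, with replicate 3 inside the DKO range and replicate 4 below every Nrf2 TKO library. Gclc was 1.65 ± 0.33 higher on the log2 scale in Atg5 KO than in WT (adjusted p = 0.00069) and 1.4 ± 0.33 higher in p62 TKO than in WT (adjusted p = 0.0012; 1.0 ± 0.3 without p62 TKO replicate 4, adjusted p = 0.0099). It was 0.76 ± 0.32 higher in DKO than in WT (adjusted p = 0.042), a call that was lost without WT replicate 1 (0.71), 2 (0.66) or 4 (0.52) and without DKO replicate 2 (0.61) or 3 (0.73). It was also lost without a filter on low counts (0.84 ± 0.35, adjusted p = 0.072) and with only the groups compared in the fit (0.74 ± 0.36, adjusted p = 0.091).

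Relative to the DKO, Gclc fell by 1.37 ± 0.33 in the Nrf2 TKO (adjusted p = 0.0011), to a level that gave -0.62 ± 0.32 against WT (adjusted p = 0.13; -0.82 ± 0.3 without WT replicate 4, adjusted p = 0.039). The p62 TKO gave 0.64 ± 0.32 against the DKO (adjusted p = 0.11). The DKO was 0.9 ± 0.32 below the Atg5 KO (-0.9, adjusted p = 0.022; lost without Atg5 KO replicate 3 at -0.77, DKO replicate 1 at -0.86 or DKO replicate 4 at -0.78), and the interaction was -1.22 ± 0.46 (adjusted p = 0.042), which lost its call when any of 9 of the 16 libraries was left out, at -1.05 to -1.25. With total counts alone neither passed (-0.29 ± 0.34, adjusted p = 0.46, and -0.72 ± 0.48, adjusted p = 0.23), nor did they without a filter (-0.82 ± 0.35, adjusted p = 0.093, and -1.16 ± 0.49, adjusted p = 0.15). The TSC1 KO gave 0.32 ± 0.32 against WT (adjusted p = 0.53).

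Gclm, the modifier subunit that makes the ligase more efficient (ENSMUSG00000028124, chromosome 3, 122245557 to 122270732, plus strand), put the genotypes in another order than Gclc. It had 278, 309, 273 and 366 CPM in the p62 TKO, 205, 189, 224 and 158 CPM in the Nrf2 TKO and 197, 229.6, 208 and 164 CPM in the DKO. Gclm had 365, 304, 414 and 365 CPM in the Atg5 KO, 285, 261, 275 and 295 CPM in the TSC1 KO and 299, 280.4, 344 and 307 CPM in WT. The DKO and Nrf2 TKO libraries were all below those of the other 4 genotypes, which overlapped each other except that Atg5 KO lay above TSC1 KO. The Atg5 KO gave 0.23 ± 0.13 against WT (adjusted p = 0.19) and the p62 TKO -0.01 ± 0.13 against WT (adjusted p = 0.97), without passing the test. Gclm fell by 0.63 ± 0.13 in DKO relative to WT (adjusted p = 0.00023) with TMM scaling, and was higher, by 0.36 ± 0.15 (adjusted p = 0.03), with total counts alone. Its direction in that comparison turned with the scaling. It fell by 0.86 ± 0.13 in DKO relative to Atg5 KO (adjusted p = 8.5e-06), rose by 0.62 ± 0.13 in p62 TKO relative to DKO (adjusted p = 0.00062), and had an interaction of -0.72 ± 0.19 (adjusted p = 0.0046). With total counts alone these 3 values were -0.25 ± 0.15, 0.16 ± 0.15 and -0.23 ± 0.21, and none passed (adjusted p = 0.14, 0.37 and 0.38). Relative to the DKO, the Nrf2 TKO gave -0.04 ± 0.13 (adjusted p = 0.82), and the Nrf2 TKO was 0.66 ± 0.13 below WT on the log2 scale (-0.66, adjusted p = 0.00048; -0.34 ± 0.15 with total counts alone, adjusted p = 0.066).

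The ratio of the 2 ligase subunits within a library does not depend on how libraries are scaled. The log2 ratio of Gclm to Gclc counts averaged -1.39 ± 0.42 in the p62 TKO, -0.1 ± 0.23 in the Nrf2 TKO, -1.44 ± 0.17 in the DKO, -1.47 ± 0.17 in the Atg5 KO, -0.54 ± 0.25 in the TSC1 KO and 0.08 ± 0.74 in WT (SD, n = 4 each). The ratio was lower in every library of the p62 TKO, DKO and Atg5 KO (highest -1.08) than in any library of the Nrf2 TKO, TSC1 KO or WT (lowest -0.87). Differences were -1.55 ± 0.38 for Atg5 KO minus WT, -1.51 ± 0.38 for DKO minus WT, -1.46 ± 0.43 for p62 TKO minus WT, 1.34 ± 0.14 for Nrf2 TKO minus DKO and -1.28 ± 0.24 for p62 TKO minus Nrf2 TKO (± SE). Each of these 5 had p = 0.029 in a two-sided exact permutation test, the smallest p that 4 libraries against 4 allow, and an adjusted p of 0.051 over the 9 pairs of genotypes, so none passed. With 5 of the 9 pairs at that smallest p, these 5 could not have passed however far apart their libraries lay. The adjusted test therefore cannot decide on these differences. The DKO minus Atg5 KO difference was 0.04 ± 0.12 (exact permutation p = 0.86), and that of p62 TKO minus DKO 0.05 ± 0.23 (exact permutation p = 0.83).

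**Figure D3:**
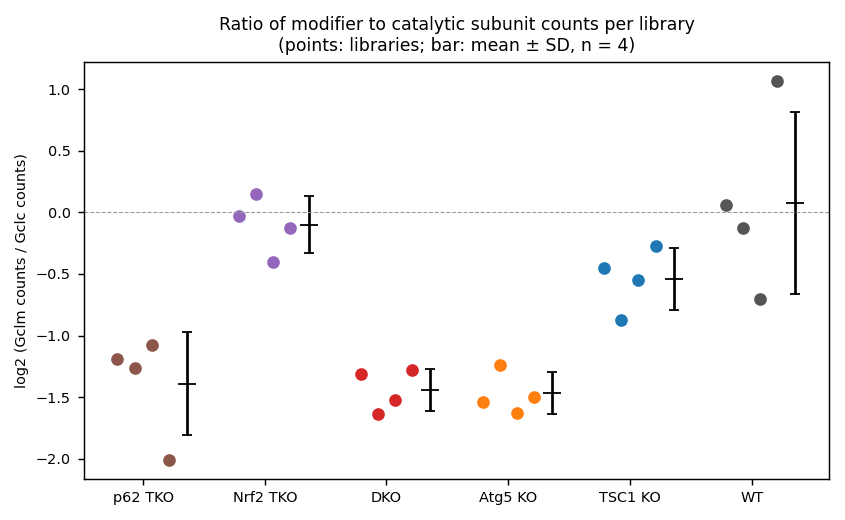
Log2 ratio of Gclm to Gclc counts in each library (points) with the mean ± SD of each genotype (n = 4), by genotype on the x axis. The p62 TKO, DKO and Atg5 KO libraries lie between -2.01 and -1.08, and WT replicate 4 stands above the others at 1.07.

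Gss and Gsr rose in the Atg5 KO, the DKO and the p62 TKO. Gss (ENSMUSG00000027610, GRCm38 chromosome 2, 155563181 to 155592810, minus strand) adds glycine in the last step of synthesis. It had 159.6, 208, 171 and 272 CPM in the p62 TKO, 85.6, 87.0, 102 and 97.6 CPM in the Nrf2 TKO and 178, 204, 175 and 115 CPM in the DKO. Gss had 188, 111, 248 and 218 CPM in the Atg5 KO, 105, 104, 90.9 and 105 CPM in the TSC1 KO and 75.0, 90.2, 107 and 102 CPM in WT. The lowest p62 TKO, DKO and Atg5 KO library was still above the highest of the other 3 genotypes. Gss rose by 1.03 ± 0.2 in Atg5 KO (adjusted p = 0.00063), by 0.84 ± 0.2 in DKO (adjusted p = 0.00085) and by 1.11 ± 0.2 in p62 TKO (adjusted p = 0.0001), each relative to WT. It fell by 0.85 ± 0.2 in Nrf2 TKO relative to DKO (adjusted p = 0.0011), where it stood at -0.01 ± 0.2 from WT (adjusted p = 0.97).

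Exons of Gss overlap those of Acss2 on the opposite strand, and no source used here states whether counting used strand, so reads of the overlap may be assigned to either gene. Acss2, an acetyl-CoA synthetase, had 714 to 959 counts in the DKO and 1118 to 2415 counts in WT, the reverse order of Gss in that pair. In the Atg5 KO, where Gss was higher than in WT, Acss2 had 1609 to 3478 counts. It had 910 to 2002 counts in the p62 TKO, 1596 to 3089 in the Nrf2 TKO and 2088 to 2779 in the TSC1 KO. The part of the overlap in the Gss values was not tested. Slc1a1 overlaps 4430402I18Rik, which had 5 to 43 counts in a library, and Gclm overlaps Gm17494, which had 5 to 76. Exons of Gclm also overlap those of Gm6061, a transcribed pseudogene on the same strand, whose identifier was not among the genes counted. The part of its reads in the Gclm values was not tested, and strand would not separate them.

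Gsr, which uses NADPH to reduce oxidised glutathione (ENSMUSG00000031584, chromosome 8, 33652523 to 33698163, plus strand), was with Gclm 1 of 2 members whose Nrf2 TKO libraries all lay below WT. It had 142, 194, 169 and 294 CPM in the p62 TKO, 79.3, 63.8, 89.7 and 83.3 CPM in the Nrf2 TKO and 256, 268, 243 and 211 CPM in the DKO. Gsr had 246, 151, 323 and 267 CPM in the Atg5 KO, 125, 143, 120.0 and 119 CPM in the TSC1 KO and 116, 122, 139.8 and 91.2 CPM in WT. DKO and Atg5 KO libraries were all above WT, and the p62 TKO libraries were too, the lowest of them by a small margin. Gsr rose by 1.07 ± 0.21 in Atg5 KO (adjusted p = 0.00044), by 1.06 ± 0.2 in DKO (adjusted p = 8.1e-05) and by 0.77 ± 0.2 in p62 TKO (adjusted p = 0.0033; 0.52 ± 0.19 without p62 TKO replicate 4, adjusted p = 0.029), each relative to WT. It fell by 1.63 ± 0.21 in Nrf2 TKO relative to DKO (adjusted p = 7.2e-07) and by 0.57 ± 0.2 in Nrf2 TKO relative to WT (adjusted p = 0.03). The call against WT was lost when any of WT replicates 1 to 3 or Nrf2 TKO replicates 1 and 2 was left out, at -0.48 to -0.57, and with total counts alone (-0.27 ± 0.22, adjusted p = 0.33). The p62 TKO gave -0.29 ± 0.2 against the DKO (adjusted p = 0.25), but passed at -0.54 ± 0.19 without p62 TKO replicate 4 (adjusted p = 0.029) and at -0.75 ± 0.22 with total counts alone (adjusted p = 0.0058).

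Ggt1, which cleaves extracellular glutathione so that its cysteine can be taken up again (ENSMUSG00000006345, chromosome 10, 75561604 to 75586200, plus strand), had 904 counts over the p62 TKO, 1151 over the DKO and 614 over the Atg5 KO libraries, against 5 over the WT libraries. It had 7.01, 6.26, 12.9 and 43.6 CPM in the p62 TKO, 0.792, 1.71, 0.387 and 0.579 CPM in the Nrf2 TKO and 13.8, 16.4, 14.7 and 17.4 CPM in the DKO. Ggt1 had 8.23, 4.49, 23.2 and 13.4 CPM in the Atg5 KO, 0.328, 0.474, 0.677 and 0.493 CPM in the TSC1 KO and 0.340, 0.231, 0 and 0 CPM in WT. The DKO libraries lay close together, whereas p62 TKO replicate 4 was far above the other 3 libraries of its genotype. Ggt1 rose by 6.34 ± 0.88 on the log2 scale in Atg5 KO (adjusted p = 1.9e-05), by 6.68 ± 0.87 in DKO (adjusted p = 7e-07) and by 6.84 ± 0.87 in p62 TKO (adjusted p = 2.1e-06; 5.84 ± 0.68 without replicate 4, adjusted p = 8.4e-07), each relative to WT. It fell by 4.1 ± 0.64 in Nrf2 TKO relative to DKO (adjusted p = 1.5e-05), where it gave 2.58 ± 1.15 against WT (adjusted p = 0.08; DESeq2 called it, at 2.61 ± 0.87 and adjusted p = 0.0093, as did edgeR with total counts alone, at 2.91 ± 1.14 and adjusted p = 0.044).

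Summed markers of bile duct cells, the cells of adult liver best known for Ggt1, ranged from 2419 to 3648 CPM in the p62 TKO, 1599.9 to 2872 CPM in the Nrf2 TKO, 6746 to 10099 CPM in the DKO, 449.7 to 1112 CPM in the Atg5 KO, 568 to 948 CPM in the TSC1 KO and 64.8 to 94.6 CPM in WT. Spp1 made up 77.8% to 94.2% of that sum in a library. Without Spp1 the other 6 markers summed to 160.5 to 286 CPM in the p62 TKO, 144 to 205 CPM in the Nrf2 TKO, 639 to 847 CPM in the DKO, 76.1 to 132 CPM in the Atg5 KO, 57.9 to 97.7 CPM in the TSC1 KO and 11.4 to 20.6 CPM in WT. On either sum the Nrf2 TKO libraries had more of these markers than the Atg5 KO libraries and less Ggt1, and the TSC1 KO libraries overlapped the Atg5 KO libraries with Ggt1 below 1 CPM. Macrophage markers (7 of 7 with counts in every genotype) ranged from 333 to 493 CPM in the p62 TKO, 106 to 158 CPM in the Nrf2 TKO, 208 to 427 CPM in the DKO, 174 to 473 CPM in the Atg5 KO, 33.5 to 85.2 CPM in the TSC1 KO and 124 to 193 CPM in WT. That sum joined genes that went opposite ways: every DKO library was above every WT library for 5 of the 7, among them Gpnmb (32.7 to 110.4 CPM in the DKO, 0.106 to 0.244 CPM in WT), and below for Clec4f, a marker of resident Kupffer cells (1.04 to 13.1 CPM in the DKO, 48.96 to 85.2 CPM in WT). Stellate cell markers ranged from 629 to 826 CPM in the DKO and from 155 to 245 CPM in WT, and lymphocyte markers from 10.03 to 18.9 CPM in the DKO and from 2.19 to 4.54 CPM in WT (7 of 7 with counts in each case). Of the stellate markers, 4 of 7 were above WT in every DKO library, and Lrat was below (4.27 to 5.9 CPM in the DKO, 6.81 to 12.8 CPM in WT). The part of these cells in the members' values was not tested.

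Counted over the members, Atg5 KO against WT called 6 of 7, all higher, where 29.9% of all genes tested were called (18.6% higher and 11.3% lower), and the members' median log2 fold change was 1.65, beside 0 over all genes. TSC1 KO against WT called 0 of 7, where 16.4% of all genes were called (8.79% higher and 7.6% lower). None of the 7 had an unadjusted p under 0.05 there in edgeR, and DESeq2 also called 0. DKO against WT called 6 higher and 1, Gclm, lower, where 69.3% of all genes were called (37.1% higher and 32.3% lower), with a median of 1.06 for the members and 0.08 for all genes. With total counts alone, which moved the median of all genes to 1.07, that split was 7 higher and 0 lower. Slc7a11, Slc1a1 and Ggt1 had few WT counts and passed the filter through the genotypes in which they were high. Over the other 4 members the median was 1.05 in Atg5 KO against WT and 0.8 in DKO against WT. Of these 4, Gclc, Gss and Gsr were called higher in both comparisons and Gclm in neither.

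The interaction called 3 of 7 lower (Slc1a1, Gclc and Gclm), where 34.8% of all genes were called (15.5% higher and 19.3% lower), and 1 with total counts alone. DKO against Atg5 KO called the same 3 genes lower, where 56.5% of all genes were called (29.2% higher and 27.3% lower), and gave 1 higher and 1 lower with total counts alone. These comparisons share the DKO and Atg5 KO libraries. In the p62 TKO against DKO, 2 of 7 were called higher (Slc1a1 and Gclm), where 43.8% of all genes were called (22.3% higher and 21.5% lower), so the members' share was not above that of all genes. Total counts alone gave 0 higher and 1 lower there.

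Nrf2 TKO against DKO called 6 of 7 lower, all but Gclm, where 55.9% of all genes were called (26.7% higher and 29.2% lower), and the members' median was -1.63 beside -0.05 over all genes. Total counts alone called 7 lower. Over the 4 members other than Slc7a11, Slc1a1 and Ggt1 the median was -1.11, and Gclc, Gss and Gsr of these were called lower with TMM. In p62 TKO against Nrf2 TKO 7 of 7 were called higher, where 17.5% of all genes were called (10.4% higher and 7.11% lower), and each alternative scaling, filter and test run also called 7. Slc7a11 differed there by 7.2 ± 0.69 (adjusted p = 1.4e-06) and Gclm by 0.66 ± 0.13 (adjusted p = 0.0015), the ends of the range. The median in that comparison was 2.01 over all 7 members and 1.23 over the 4 other than Slc7a11, Slc1a1 and Ggt1. Against WT, the p62 TKO called 6 of 7 higher, where 50.9% of all genes were called (28% higher and 22.9% lower). The Nrf2 TKO called 2 lower (Gclm and Gsr) against WT, where 39.5% of all genes were called (22.4% higher and 17.1% lower). For Nrf2 TKO against WT, total counts alone gave 1 higher and 0 lower. Both triple knockouts were set against the same DKO and WT libraries.

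Per kilobase of exon, the only scale on which levels of different genes are compared here, Gclc was the most abundant member in every genotype, at a mean of 227 CPM per kilobase in the p62 TKO, 56.3 in the Nrf2 TKO, 146 in the DKO, 271 in the Atg5 KO, 108 in the TSC1 KO and 86.3 in WT. Gclm came next in WT with 48.9 and Gsr with 42.6 CPM per kilobase, whereas Gsr (88.8) was above Gclm (31.7) in the DKO. Slc7a11 averaged 13.9 CPM per kilobase in the p62 TKO, 9.74 in the DKO, 13.3 in the Atg5 KO and 0.0185 in WT, and Slc1a1 was 9.54 in the Atg5 KO and 0.00664 in WT. Among neighbours in the order of genotype means, a gap with no overlap of libraries lay between DKO and Nrf2 TKO for Slc7a11, DKO and TSC1 KO for Slc1a1 and Gss, Atg5 KO and Nrf2 TKO for Ggt1, TSC1 KO and DKO for Gclm, and WT and Nrf2 TKO for Gsr. Every other pair of neighbours overlapped, and for Gclc all 5 did.

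**Figure D4:**
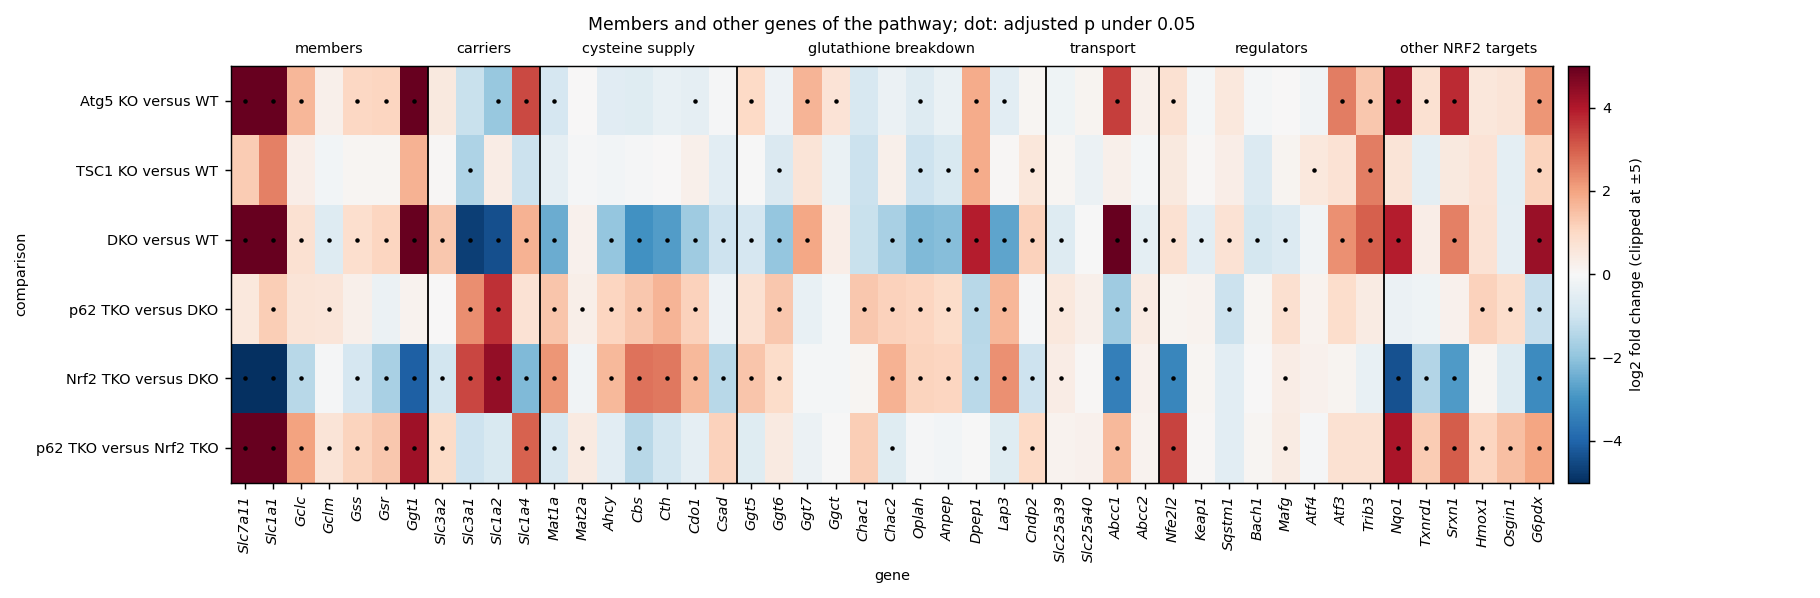
Log2 fold change (colour, clipped at 5 in either direction) of the 7 members and of the 40 tested genes of the pathway lists in 6 comparisons (rows), with a dot where the adjusted p passed 0.05. In DKO against WT, 6 of 7 genes of cysteine supply are blue while 6 of 7 members are red.

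Lists of 42 further genes, 40 of them tested, placed the members in their pathway. Among carriers, the Slc7a11 partner Slc3a2 averaged 64.4 ± 19.9 CPM in the Nrf2 TKO, 123 ± 14.4 CPM in the DKO and 47.7 ± 3.48 CPM in WT (SD, n = 4 each). It rose by 1.36 ± 0.19 in DKO relative to WT (adjusted p = 1.3e-06), fell by 0.93 ± 0.19 in Nrf2 TKO relative to DKO (adjusted p = 0.00022), and was 0.96 ± 0.19 higher in p62 TKO than in Nrf2 TKO (adjusted p = 0.0013). Slc1a4, a carrier of small neutral amino acids that include cysteine, rose by 3.3 ± 0.43 in Atg5 KO relative to WT (adjusted p = 1e-05) and fell by 2.21 ± 0.42 in Nrf2 TKO relative to DKO (adjusted p = 0.00014). Slc1a2, the glutamate carrier of pericentral hepatocytes, went the other way, with 11.6 ± 7.92 CPM in the DKO and 245 ± 45.8 CPM in WT (-4.41 ± 0.46, adjusted p = 2.8e-08), and relative to the DKO it rose by 3.65 ± 0.44 in the p62 TKO (adjusted p = 1.7e-06) and by 4.39 ± 0.45 in the Nrf2 TKO (adjusted p = 8.3e-08). In DKO against WT, 2 of the 4 carriers tested were called higher and 2 lower, where 69.3% of all genes were called.

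Genes of the cysteine supply from methionine, and of its use, were lower in the DKO. Of 7, 6 were called lower and 0 higher in DKO against WT, where 69.3% of all genes were called and 32.3% were lower, and with total counts alone 5 lower and 1 higher. Cbs, the first transsulfuration enzyme, averaged 100.2 ± 21.3 CPM in the DKO and 815 ± 131 CPM in WT (-3.03 ± 0.31, adjusted p = 1.1e-08). Cdo1, which oxidises cysteine, changed by -1.79 ± 0.18 (adjusted p = 9.4e-09) and Mat1a, which makes S-adenosylmethionine in hepatocytes, by -2.49 ± 0.26 (adjusted p = 1.9e-08). Summed hepatocyte markers were lower in the same libraries (13089 to 18271 CPM in the DKO, 81698 to 103219 CPM in WT), and their part in these changes was not tested. In TSC1 KO against WT 0 of the 7 were called. In Nrf2 TKO against DKO 5 were called higher and 1 lower, where 55.9% of all genes were called (26.7% higher), with Cbs at 2.72 ± 0.31 (adjusted p = 1.3e-07), Cdo1 at 1.63 ± 0.18 (adjusted p = 1.1e-07) and Mat1a at 2.21 ± 0.26 (adjusted p = 2.7e-07), and in p62 TKO against DKO 6 were called higher and 0 lower, where 43.8% of all genes were called (22.3% higher), or 4 higher with total counts alone. In that Nrf2 TKO against DKO comparison the members called were lower, and the difference between the lists was not tested.

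Among 11 genes of glutathione breakdown, DKO against WT called 3 higher and 6 lower (4 and 5 with total counts alone), where 69.3% of all genes were called. The peptidases Anpep and Lap3 changed by -2.11 ± 0.16 (adjusted p = 6.8e-11) and -2.65 ± 0.2 (adjusted p = 7.8e-11), and the oxoprolinase Oplah by -2.19 ± 0.19 (adjusted p = 1.1e-09). Of 4 transport genes, Abcc1, an exporter of glutathione conjugates, was called higher in Atg5 KO against WT (3.44 ± 0.33, adjusted p = 1.5e-07) and in DKO against WT (5.02 ± 0.33, adjusted p = 1.7e-11). It was the only 1 of the 4 called in Atg5 KO against WT, where 29.9% of all genes were called. In DKO against WT Slc25a39 and Abcc2 were called lower with TMM scaling, where 69.3% of all genes were called (37.1% higher and 32.3% lower). Before scaling, Slc25a39 had 5620 to 6073 counts in DKO libraries and 4153 to 4767 in WT libraries. Abcc2 had 5709 to 9073 counts in the DKO and 4178 to 5998 in WT. The direction of both therefore rests on the scaling. Abcc1 had 15.8 ± 4.52 CPM in the p62 TKO, 5.10 ± 0.71 CPM in the Nrf2 TKO, 54.8 ± 6.22 CPM in the DKO and 1.68 ± 0.433 CPM in WT (SD, n = 4 each). It was lower than in the DKO both in the p62 TKO (-1.8 ± 0.26, adjusted p = 1.1e-05) and in the Nrf2 TKO (-3.42 ± 0.29, adjusted p = 2.7e-09). Relative to the DKO, Slc25a39 was called higher in both triple knockouts, and Abcc2 in the p62 TKO, with TMM scaling. Before scaling, Slc25a39 had 3691 to 5071 counts in the Nrf2 TKO, below every DKO library, and 5794 to 6085 in the p62 TKO. Abcc2 had 5690 to 7967 counts in the p62 TKO, and both p62 TKO ranges overlapped those of the DKO. These rises too rest on the scaling. The shares of all genes called were 43.8% in p62 TKO against DKO and 55.9% in Nrf2 TKO against DKO.

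Of 8 regulator genes, 3 were called higher in Atg5 KO against WT, where 29.9% of all genes were called (18.6% higher). In TSC1 KO against WT 2 were called higher, where 16.4% of all genes were called (8.79% higher). In DKO against WT 4 were called higher and 3 lower, where 69.3% of all genes were called (37.1% higher and 32.3% lower). With total counts alone the regulators gave 6 higher in Atg5 KO, 2 higher in TSC1 KO, and 7 higher and 0 lower in DKO. Nfe2l2 itself rose by 0.76 ± 0.19 in both Atg5 KO (adjusted p = 0.0043) and DKO (adjusted p = 0.0012) relative to WT. Keap1 changed by -0.52 ± 0.09 in DKO against WT (adjusted p = 1.5e-05) with TMM and by 0.47 ± 0.1 (adjusted p = 0.00016) with total counts alone, so its direction turned with the scaling. The ATF4 target Trib3 rose by 2.55 ± 0.37 in TSC1 KO relative to WT (adjusted p = 0.0001) and by 2.98 ± 0.37 in DKO relative to WT (adjusted p = 3.1e-07), and Atf4 by 0.51 ± 0.16 in TSC1 KO relative to WT (adjusted p = 0.033). The Atf4 call was lost without WT replicate 1 (0.5) or 2 (0.46) and without TSC1 KO replicate 1 (0.36) or 2 (0.49). In the TSC1 KO libraries Trib3 averaged 21.4 ± 5.79 CPM, against 3.66 ± 0.907 CPM in WT (SD, n = 4 each). Slc7a11 averaged 0.631 ± 0.298 CPM in the TSC1 KO and 0.258 ± 0.199 CPM in WT (SD, n = 4 each), from totals of 25 and 9 counts. The part of ATF4 in the Slc7a11 levels was not tested.

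Of 6 other NRF2 targets, 4 were called higher in Atg5 KO, 1 in TSC1 KO and 3 in DKO, each against WT, and 4 were called lower in Nrf2 TKO against DKO. The shares of all genes called in the same direction were 18.6%, 8.79% and 37.1% higher against WT and 29.2% lower in Nrf2 TKO against DKO. In either direction they were 29.9%, 16.4%, 69.3% and 55.9%, in that order. With total counts alone the targets gave 6, 1 and 5 higher against WT and 5 lower in Nrf2 TKO against DKO. The one called in TSC1 KO, G6pdx (1.11 ± 0.32, adjusted p = 0.022), lost its call without WT replicate 2 (1.1), 3 (1.04) or 4 (1.07) and without TSC1 KO replicate 3 (0.99). Nqo1, a quinone reductase, fell to 3.83 ± 2.02 CPM in the Nrf2 TKO, against 80.5 ± 19.4 CPM in the DKO (-4.37 ± 0.42, adjusted p = 3e-08). Srxn1, which reduces peroxiredoxins, changed by -2.81 ± 0.36 in the same comparison (adjusted p = 1.3e-06). In p62 TKO against Nrf2 TKO 6 of 6 were called higher, where 17.5% of all genes were called (10.4% higher). In p62 TKO against DKO 2 of the 6 were called higher (Hmox1 and Osgin1) and 1 lower. There 43.8% of all genes were called (22.3% higher and 21.5% lower). The 1 called lower was G6pdx, the NADPH-producing enzyme that supplies Gsr (-1.15 ± 0.27, adjusted p = 0.0018). Gsr gave -0.29 ± 0.2 in that comparison and did not pass. It passed at -0.54 ± 0.19 without p62 TKO replicate 4 (adjusted p = 0.029) and at -0.75 ± 0.22 with total counts alone (adjusted p = 0.0058).

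Other genes were ranked by how closely their log2 CPM profile over the 24 libraries followed that of a member, as the root mean square difference after each gene's own mean was removed. The closest to both carriers was Cbr3, a carbonyl reductase, at 1.05 from Slc7a11 and 0.65 from Slc1a1, whose own profiles had root mean squares of 3.97 and 3.27. Slc7a11 and Slc1a1 were 1.24 from each other. Gsta4, a glutathione transferase, was closest to Gclc (0.38), the proteasome factor Psmd5 to Gclm (0.17), Tmbim1 to Gss (0.22), the transketolase Tkt to Gsr (0.21) and the efflux transporter Abcc4 to Ggt1 (0.61). Among the members, Gss and Gsr were the closest pair at 0.32, and Gclc was nearer to Gsr (0.44) than to its partner subunit Gclm (0.73). These values describe likeness over libraries that share genotypes.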

How the data were processed

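Counts per gene for 24 libraries were used as deposited: per the labels' protocols, polyA-selected stranded libraries were read as single reads of 75 bp, and per the submitters' processing notes Trimmomatic 0.36, HISAT2 2.1.0, HTSeq and GRCm38 were used. For the counting, annotation and strand setting stay not given in the sources used here. Of 33019 identifiers, 32953 matched GENCODE M21, which gave symbols, GRCm38 positions and exon lengths. Promoter sequences came from RefSeq (GRCm38.p6).

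Genes were filtered with filterByExpr (15851 kept) and scaled by TMM. One edgeR 4.0.16 quasi-likelihood fit (R 4.3.3, limma 3.58.1) held all 24 libraries with 1 mean per genotype, and p-values were adjusted by Benjamini-Hochberg over all genes tested. A gene was called at an adjusted p under 0.05, and SE is the log2 fold change divided by the root of F. The contrasts were 9 pairs of genotypes and the Atg5 by TSC1 interaction. The method was tested on simulated data. Profile distances used log2 CPM with a prior count of 2. Ratios of Gclm to Gclc were compared by exact permutation (SciPy 1.17.1). Intervals on count ratios are 95% and cover counting error only. Library totals were 10494080 to 13057467 counts. Alternatives were DESeq2 1.42.0, its size factors, total counts, no filter, only the groups compared, a replicate block and each library left out.

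Members and lists were chosen with earlier results of these data known. Named genes were the members, up to 3 genes of each pathway list with the smallest adjusted p in a comparison, any regulator or NRF2 target of the lists, and the genes nearest to each member in profile.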

Additional observations from a re-analysis of the deposited data

Results flagged for a closer look

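Slc7a11 in the p62 TKO had 1 library, replicate 4, at 337 CPM, far from the other 3 at 136 to 161 CPM. In the Nrf2 TKO, replicate 1 stood apart at 3.07 CPM, above 0.484 to 0.892 CPM in the others. Gss in the TSC1 KO had replicate 3 at 90.9 CPM, below 104 to 105 CPM in the others. These 3 came from 42 groups of a member in a genotype, and chance gives about 1 in 20.

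The change with the Atg5 label differed between livers with and without the TSC1 label for Slc1a1 (interaction -5.4 ± 1.51, adjusted p = 0.008), Gclm (-0.72 ± 0.19, adjusted p = 0.0046) and Gclc (-1.22 ± 0.46, adjusted p = 0.042), by the edgeR quasi-likelihood test with adjustment by Benjamini-Hochberg. These were 3 of 7 members, where 34.8% of all genes were called. The Slc1a1 value depends on 15 counts over the TSC1 KO libraries and 2 over the WT libraries. Gclc lost its interaction call when any of 9 of the 16 libraries was left out (-1.05 to -1.25), and without a filter on low counts (-1.16 ± 0.49, adjusted p = 0.15). With total counts alone both Gclm (-0.23 ± 0.21, adjusted p = 0.38) and Gclc (-0.72 ± 0.48, adjusted p = 0.23) lost it.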

How the results depend on the processing

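With DESeq2 size factors all 70 values (7 members in 10 comparisons) kept their direction and their side of the threshold, and with DESeq2 68 did. Total counts alone kept 48, with 8 calls lost and 6 gained, 2 of those 6 with the sign turned (Gclm in p62 TKO against WT and Gsr in DKO against Atg5 KO). The setting without a filter lost 4 calls and that with only the groups compared lost 2. Total counts alone reversed Gclm in DKO against WT (0.36) and in p62 TKO against WT (0.52), and Keap1 in DKO against WT (0.47). The same setting reversed Gss (0.17) and Gsr (0.35) in the interaction, and Slc7a11 (0.11), Gss (0.41) and Gsr (0.59) in DKO against Atg5 KO. It also reversed Gss (-0.19) and Ggt1 (-0.28) in p62 TKO against DKO, and Gss in Nrf2 TKO against WT (0.31). Without a filter, Gsr in DKO against Atg5 KO was 0.06 and Gclm in p62 TKO against WT 0.01. With only the groups compared, which gave 64 values because low members were filtered out, Gclm was 0.04 in Nrf2 TKO against DKO and 0.02 in p62 TKO against WT, and Gss 0.01 in Nrf2 TKO against WT. Replicate numbers did not pair the libraries (correlations of deviations -0.28 to 0.26, median -0.01, over 60 same-numbered pairs), and the replicate block changed no call: it gave Gsr 0.01 in DKO against Atg5 KO, Ggt1 -0.12 in p62 TKO against DKO and Gclm 0.0 in p62 TKO against WT. The cause of these changes was not tested, and all these values but those of total counts lie within their SE of 0.

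The number of members called moved by more than 1.5 times in 3 comparisons, and by less in DKO against WT, DKO against Atg5 KO, Atg5 KO against WT, p62 TKO against WT and Nrf2 TKO against DKO. The interaction gave 1 with total counts alone, 2 without a filter and 2 to 3 with 1 library left out. The p62 TKO against DKO gave 1 with total counts alone, 1 without a filter, 1 with only the groups compared, and 1 to 2 with 1 library left out. Nrf2 TKO against WT gave 1 with total counts alone, 4 with DESeq2 and 1 to 3 with 1 library left out. Leaving out 1 library turned the sign of Gsr in the interaction (-0.36 to 0.03) and in DKO against Atg5 KO (-0.25 to 0.14), Ggt1 in p62 TKO against DKO (-0.83 to 0.48), Gclm in Nrf2 TKO against DKO (-0.12 to 0.11) and in p62 TKO against WT (-0.1 to 0.04), and Gss in Nrf2 TKO against WT (-0.08 to 0.07).

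Against WT, the sizes of the Slc7a11, Slc1a1 and Ggt1 changes rest on 9, 2 and 5 WT counts.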
